A study of Mus musculus with 6 samples.

Results

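The copine family is described here across brains that differ in the active site of PME-1. Its members, Cpne1 to Cpne9, were chosen by name: every annotated gene with a copine symbol was taken, which gave 9 of the 55359 annotated genes in the files. The family was picked out because Cpne7 was among the genes called between the genotypes in these same libraries, so the TPM of Cpne7 are given as a description and support nothing by themselves. PME-1, the product of Ppme1, takes a methyl group off the tail of the catalytic subunit of the phosphatase PP2A. RNA was sequenced from whole brains of E18.5 mouse embryos, late in gestation, taken from wild-type (WT) animals and from animals with the S156A form of PME-1, in which alanine stands in place of the active-site serine. There were 3 WT and 3 S156A libraries, each made from 3 brains combined in 1 tube. The labels name no other allele and no treatment, and give neither the zygosity nor the sex of the embryos. Because each library is a pool, the spread between libraries is the spread between pools of brains, and p-values measure only that spread.

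Copines are soluble proteins with a pair of C2 domains at one end and an A domain, related to that of von Willebrand factor, at the other. A C2 domain binds membrane phospholipid when calcium rises, as it does in the synaptotagmins of synaptic vesicles, and the A domain binds partner proteins. In brain the family is best known through Cpne6, which moves to the membrane of dendritic spines in excitatory neurons. Cpne1, Cpne2 and Cpne3 are made in many tissues, whereas Cpne4 to Cpne7 are best known from neurons. Cpne8 and Cpne9 are placed in neither group here, which does not say where they are made.

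The 9 genes share one protein plan but differ in most stretches of their coding sequence, which matters for how reads are shared out between them. The coding sequences of 1 full-length GENCODE M21 transcript per gene were between 1599 and 1779 bases long. Over all 36 pairs their identity lay between 61.1% and 75.9%, with a median of 63.7%. Cpne5 and Cpne9 were the closest pair at 75.9%, and the closest relative of Cpne7 was Cpne4 at 71.0%. The longest run of identical bases in any pair was 31 bases, between Cpne5 and Cpne6. Printed next, 5′ to 3′, are the 60 bases of Cpne7 with the fewest summed differences from the other members. Each other member is shown at its best match without gaps, with capitals at each base that differs from Cpne7.
Cpne1: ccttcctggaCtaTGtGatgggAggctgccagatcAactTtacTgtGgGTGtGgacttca
Cpne2: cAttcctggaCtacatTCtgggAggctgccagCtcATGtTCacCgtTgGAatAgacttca
Cpne3: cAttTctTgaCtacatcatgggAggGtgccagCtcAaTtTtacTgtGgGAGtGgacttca
Cpne4: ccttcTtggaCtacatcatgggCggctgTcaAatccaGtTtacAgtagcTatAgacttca
Cpne5: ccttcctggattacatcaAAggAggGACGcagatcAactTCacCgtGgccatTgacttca
Cpne6: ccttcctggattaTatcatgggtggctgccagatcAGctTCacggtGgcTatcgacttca
Cpne7: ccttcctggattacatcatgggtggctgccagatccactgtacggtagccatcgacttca
Cpne8: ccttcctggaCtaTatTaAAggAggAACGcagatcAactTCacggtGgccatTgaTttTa
Cpne9: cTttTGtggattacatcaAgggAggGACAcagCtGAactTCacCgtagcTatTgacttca
Of the 60 positions, 28 were the same in all 9 genes. Cpne6 differed from Cpne7 at 7 positions, Cpne4 at 10, Cpne1 and Cpne5 at 13 each, Cpne2 and Cpne3 at 16 each, and Cpne8 and Cpne9 at 17 each.

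The libraries were estimated to hold between 3.15 and 4.14 aligned gigabases, and between 18191 and 19270 genes reached a TPM of 1. TPM is an abundance corrected for transcript length and scaled to the library. Levels are compared between genes on it here, within the limits given below for overlapping genes and for Cpne4. Ppme1 had a TPM of 92.4, 95.0 and 74.0 in WT and of 72.4, 89.0 and 82.7 in S156A, and the groups overlapped; a base substitution need not change this level, so it does not check the genotype labels. Summed TPM of 7 pan-neuronal markers ran from 3690 to 5080 in WT and from 2703 to 3872 in S156A, so the tissue carried its defining transcripts. WT replicate 3 and S156A replicate 1 stood apart in 10 skeletal muscle markers, whose summed TPM were 7511 and 7962 there, against 18.0 to 953 in the other 4 libraries. S156A replicate 1 also stood apart in Y-linked genes, with a mean log2(TPM + 1) of 0.11 against 2.82 to 3.77 in the other 5 libraries.

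Cpne7 fell in S156A brain to 0.215 times its WT level. It lies on the forward strand of chromosome 8, from 123844113 to 123861921 in the coordinates of the files, whose build is inferred to be GRCm39, and carries the identifier ENSMUSG00000034796.15. Outside the brain its protein has been studied as a factor of the tooth-forming epithelium. Its TPM were 26.8, 27.1 and 18.7 in WT and 5.82, 3.82 and 5.91 in S156A. Every S156A library lay below every WT library, and the lowest WT value was that of replicate 3. The means were 24.2 ± 4.77 (SD, n = 3) in WT and 5.18 ± 1.18 (SD, n = 3) in S156A. On the log2(TPM + 1) scale the difference was -2.03 (SE 0.23), with a 95% interval from -2.57 to -1.48. Only 0.0476% of the 18893 genes tested had a lower difference. In bulk RNA, fewer cells of a type and less of the transcript per cell cannot be told apart.

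The Cpne7 gene lies wholly inside the span of Galnt2l, which the annotation draws on the same strand over chromosome 8 from 120637580 to 125072461. Galnt2l had a TPM of 94.7, 89.3 and 88.2 in WT and of 82.4, 85.5 and 77.8 in S156A, a mean 0.903 times the WT mean. The microRNA gene Mir7080, on the same strand within Cpne7, had a TPM of 1.83, 13.5 and 3.47 in WT and of 0.0234, 1.61 and 2.08 in S156A, and its groups overlapped. Reads of genes that overlap on 1 strand can be shared out in more than 1 way. The files also hold rows of assembled loci, and those at the place of Cpne7 gave a TPM of 29.1, 31.4 and 19.7 in WT and of 5.69, 13.1 and 6.14 in S156A. In S156A replicate 2 the assembled TPM was 13.1 against 3.82 for the annotated gene. That 13.1 is a sum over 2 assembled rows, whereas every other library had 1 row there. With assembled in place of annotated rows, an alternative added after the data were seen, the difference was -1.63 (SE 0.33) and the limma adjusted p was 0.11, so the call was lost although the groups still did not overlap.

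**Figure D1:**
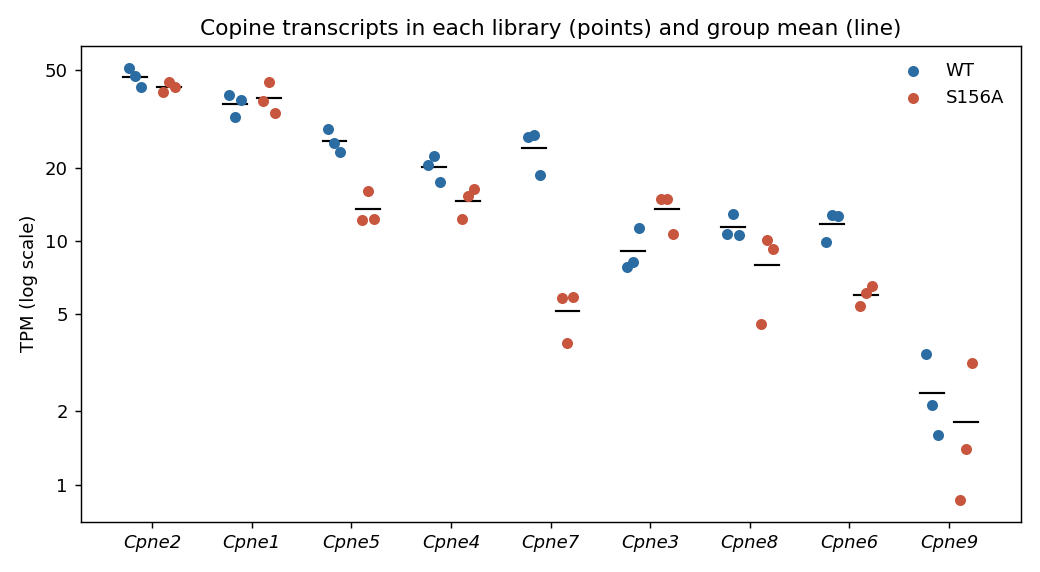
TPM of each copine gene on a log axis, with 1 point per library (blue WT, red S156A) and a line at the mean of each group of 3; genes are ordered by their mean over all 6 libraries. The WT and S156A points of Cpne7, Cpne5, Cpne6, Cpne4 and Cpne8 do not overlap, and the widest gap is that of Cpne7, 18.7 against 5.91 TPM.

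Of the copines best known from neurons, Cpne5, Cpne6 and Cpne4 were below WT in every S156A library, but none passed the test over all genes. Cpne5 (ENSMUSG00000024008.17, reverse strand of chromosome 17, from 29374530 to 29457141) had a TPM of 28.8, 25.2 and 23.3 in WT and of 12.2, 16.0 and 12.3 in S156A. Its groups were separated by a gap, and the difference was -0.89 (SE 0.16), with a limma adjusted p of 0.094. Cpne6 (ENSMUSG00000022212.16, forward strand of chromosome 14, from 55747902 to 55754888), the dendritic spine copine, had a TPM of 9.89, 12.8 and 12.6 in WT and of 5.42, 6.11 and 6.54 in S156A. Its S156A libraries lay close together and all below the WT libraries, with a difference of -0.86 (SE 0.19) and a limma adjusted p of 0.13. Cpne4 (ENSMUSG00000032564.17, forward strand of chromosome 9, from 104424485 to 104911743) is a copine of brain and of retinal ganglion cells. Its TPM were 20.6, 22.4 and 17.5 in WT and 12.3, 15.2 and 16.3 in S156A. The groups nearly touched, between 16.3 and 17.5, and the difference of -0.44 (SE 0.17) had a limma adjusted p of 0.33. The genes that overlap Cpne5 and Cpne4, Gm50054 and ENSMUSG00002076590, were listed at 0 in all 6 libraries, and no annotated gene overlaps Cpne6.

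Cpne4 stood apart from the other members in its read depth, which was low for its TPM in every library. Its deposited read depth lay between 0.51 and 0.84 reads per base, although its TPM in WT was close to those of Cpne5 and Cpne7. The transcripts assembled at the locus began 19391 bases after the annotated start in 4 libraries, where their depth was between 0.53 and 0.80 reads per base. In WT replicate 2 and S156A replicate 2 they began 22197 bases after it, and the depths were 24.2 and 15.8 reads per base. These are the starts of the GENCODE M21 transcripts ENSMUST00000157006.7, which is 549 bases long, and ENSMUST00000057742.14, which is 3959 bases long. The assembled TPM did not follow the depth, with 22.3 in WT replicate 2 and 22.1 in WT replicate 1. The place of Cpne4 among the levels therefore rests on TPM alone.

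The most abundant copines, Cpne1 and Cpne2, overlapped between the genotypes and did not pass the test. Cpne1 (ENSMUSG00000074643.13, reverse strand of chromosome 2, from 155913762 to 155953885), a widely expressed copine, had a TPM of 39.6, 32.3 and 37.8 in WT and of 37.5, 45.0 and 33.5 in S156A. Its groups overlapped, and the difference was 0.07 (SE 0.15), with a limma adjusted p of 0.86 and a 95% interval from -0.28 to 0.42. Cpne1 overlaps Rbm12 and the predicted gene Gm28036 on its own strand. Gm28036 had a mean TPM of 34.2 ± 1.12 (SD, n = 3) in WT and 35.8 ± 5.63 (SD, n = 3) in S156A, and Rbm12 had means of 21.0 and 22.8, so the level of Cpne1 depends on how reads were divided between 3 genes of like abundance. A further gene within Cpne1, Gm37274, had at most 2.88 TPM. Cpne2 (ENSMUSG00000034361.11, forward strand of chromosome 8, from 95259618 to 95297159) has no overlapping gene. Its TPM were 51.4, 47.3 and 42.9 in WT and 40.9, 44.7 and 42.9 in S156A, which overlap. Its difference was -0.14 (SE 0.11), with a limma adjusted p of 0.63 and a 95% interval from -0.40 to 0.13. Cpne2 and Cpne7 lie on the same chromosome and strand, and only Cpne7 was called.

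Cpne3 had the largest difference above 0 among the members, and it did not pass the test. It lies on the reverse strand of chromosome 4, from 19519254 to 19570108 (ENSMUSG00000028228.6), and encodes a widely expressed copine that binds the receptor ErbB2 in migrating cells. Its TPM were 7.79, 8.19 and 11.3 in WT and 14.9, 14.9 and 10.7 in S156A. The groups overlapped because WT replicate 3 lay above S156A replicate 3. The difference was 0.52 (SE 0.22), with an unadjusted limma p of 0.045 and an adjusted p of 0.35.

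Cpne8 and Cpne9, which stand nearest to Cpne5 in sequence, were the least certain members. Cpne8 (ENSMUSG00000052560.16, reverse strand of chromosome 15, from 90371685 to 90563635) had a TPM of 10.7, 12.9 and 10.6 in WT and of 4.59, 10.1 and 9.23 in S156A. Its groups did not overlap, but S156A replicates 2 and 3 lay just under the WT range, and the difference of -0.52 (SE 0.29) had a limma adjusted p of 0.46. The lowest value was that of S156A replicate 1, and without that library the difference was -0.21. Without both muscle-rich libraries it was -0.26. The deposited read depth of Cpne8 in S156A replicate 1 was 4.50 reads per base, against 4.19 and 4.50 in S156A replicates 2 and 3. The lower TPM of that library was therefore not matched by a lower depth. In the assembled rows the Cpne8 groups overlapped, with means of 12.1 ± 1.36 and 11.4 ± 3.50 TPM (SD, n = 3). There S156A replicate 1, the lowest by annotated rows, was the highest library. Its 15.4 TPM were summed over 3 assembled rows, against 1 row in every other library. Cpne9 (ENSMUSG00000030270.12, forward strand of chromosome 6, from 113259268 to 113282588) was the lowest copine, with a TPM of 3.44, 2.12 and 1.60 in WT and of 0.867, 1.40 and 3.16 in S156A. Its groups overlapped over most of their range, and its difference of -0.32 (SE 0.38) had a limma adjusted p of 0.76. The genes overlapping Cpne8 and Cpne9, Gm6746 and Gm43935, lie on the opposite strand and had at most 0.145 and 1.05 TPM.

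All 9 members passed the filter of a mean TPM of at least 1. The test called 1 of the 9 in S156A, Cpne7, which was lower, beside 0.0741% of all tested genes called lower. No member was called higher, beside 0.0847% of all tested genes. The groups did not overlap in 5 of 9 members that were lower, Cpne4, Cpne5, Cpne6, Cpne7 and Cpne8, beside 7.05% of all tested genes. No member was higher without overlap, beside 13.7% of all tested genes. The median log2 difference was -0.44 over the 9 members and 0.09 over all tested genes. At an unadjusted p under 0.05 there were 4 members lower and 1 higher, beside 5.5% and 8.41% of all tested genes. Nothing is read from these shares, because the family was picked out from this same contrast.

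**Figure D2:**
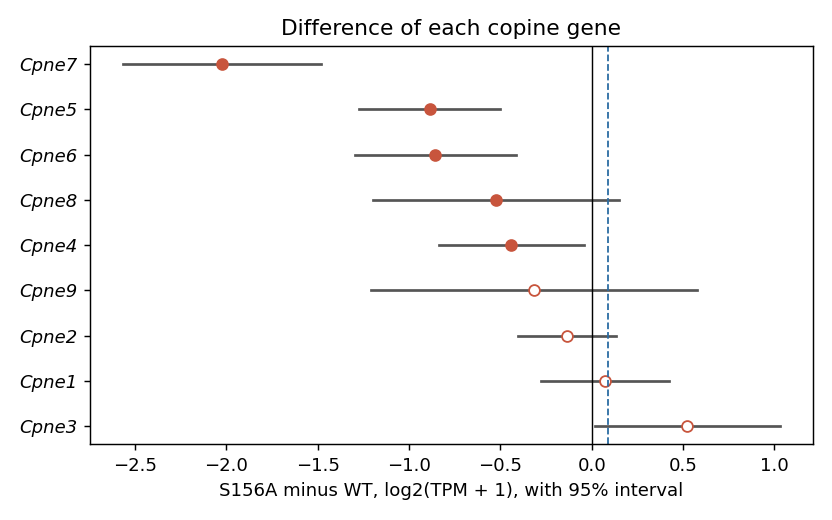
Difference in log2(TPM + 1), S156A minus WT, for each copine gene with its 95% interval from limma; filled points mark genes whose groups do not overlap, the solid line is at 0 and the dashed line at the median of all tested genes, 0.09. Cpne7 lies at -2.03, Cpne5 and Cpne6 lie near -0.9, and Cpne3 lies at 0.52.

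Cpne2 and Cpne1 stood at the top of the family and Cpne9 at the bottom in both genotypes, while the members between them changed places. In WT the mean TPM ran from Cpne2 (47.2) through Cpne1 (36.6), Cpne5 (25.8), Cpne7 (24.2), Cpne4 (20.2), Cpne6 (11.8), Cpne8 (11.4) and Cpne3 (9.10) to Cpne9 (2.39). In S156A it ran from Cpne2 (42.8) through Cpne1 (38.7), Cpne4 (14.6), Cpne5 (13.5), Cpne3 (13.5), Cpne8 (7.97), Cpne6 (6.02) and Cpne7 (5.18) to Cpne9 (1.81). Of the 36 pairs of genes, 33 stood in 1 order in all 3 WT libraries, 29 in all 3 S156A libraries and 24 in all 6. Each of those 24 had an exact two-sided sign-flip permutation p of 0.03125, the smallest that 6 libraries allow, and an adjusted p of 0.0469 over the 36 pairs. Any pair in 1 order in all 6 libraries gets that p, so it adds nothing to the count. It also cannot tell a true order from a bias that a gene's level carries in every library. Pairs with Cpne7, whose values chose the family, are among the 24. Cpne1 was above Cpne5, and Cpne6 above Cpne9, in every library. Cpne2 was above Cpne1 in 5 of 6 libraries (exact permutation p = 0.0625, adjusted p = 0.0865). The other neighbours by mean TPM over all 6 libraries did not keep 1 order in every library (exact permutation, adjusted p between 0.310 and 1). In the assembled rows, Cpne1 was instead above Cpne2 in all 6 libraries, with means of 62.2 and 44.5 TPM; the assembled rows at Cpne1 also cover the place of Rbm12 and Gm28036. Which of Cpne1 and Cpne2 stands first therefore depends on the rows used.

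The make-up of the copine pool is given as a description, since Cpne7, whose values chose the family, enters each share. Summed over the 9 genes, TPM were 199, 190 and 176 in WT and 134, 157 and 140 in S156A, without overlap. Without Cpne7 the sums were 164 ± 7.40 (SD, n = 3) and 139 ± 12.9 (SD, n = 3). Cpne7 made up 13.4%, 14.2% and 10.6% of the copine TPM in WT and 4.33%, 2.43% and 4.20% in S156A. Cpne4 to Cpne7 together made up 43.4% ± 2.55 (SD, n = 3) in WT and 27.3% ± 1.65 (SD, n = 3) in S156A. Cpne1 and Cpne2 together made up 44.5% ± 2.25 and 56.6% ± 2.02 (SD, n = 3 each). The share of Cpne3 was 4.88% ± 1.34 in WT and 9.37% ± 1.73 in S156A (SD, n = 3 each). With Cpne7 left out of the pool, Cpne1 and Cpne2 made up 50.9% ± 2.03 in WT and 58.7% ± 2.11 in S156A, and Cpne4 to Cpne6 made up 35.1% ± 1.67 and 24.6% ± 1.44 (SD, n = 3 each). Neither pair of ranges overlapped, and Cpne3 made up 4.53% to 7.17% in WT and 7.93% to 11.6% in S156A. These shares were not tested. A share rises when other members are lower, and the TPM of Cpne1 and Cpne2 overlapped between the genotypes. Cpne4, Cpne5 and Cpne6 were each lower without overlap, so their joint share is not a separate result.

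**Figure D3:**
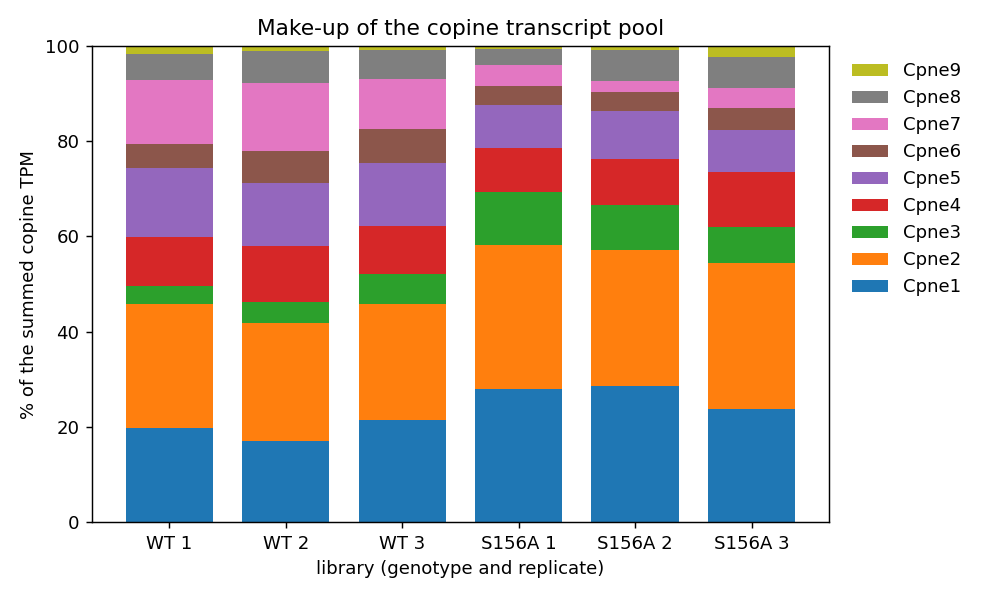
Share of each copine gene in the summed copine TPM, in percent, with 1 stacked bar per library. The Cpne7 band covers 10.6% to 14.2% in the WT bars and 2.43% to 4.33% in the S156A bars, and the bands of Cpne1 and Cpne2 together cover more of every S156A bar than of any WT bar.

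Cpne7 ranked 4, 3 and 4 among the 9 copines in the WT libraries and 6, 8 and 8 in the S156A libraries. The ratio of Cpne3 to Cpne7 TPM was 0.291, 0.303 and 0.606 in WT and 2.55, 3.89 and 1.81 in S156A. Of the 36 pairs, 3 stood in one order in all WT libraries and in the opposite order in all S156A libraries: Cpne3 with Cpne7, Cpne4 with Cpne7, and Cpne3 with Cpne6. Across the 6 libraries, Cpne7 on the log2(TPM + 1) scale correlated with Cpne6 (r = 0.91), Cpne5 (r = 0.91), Cpne4 (r = 0.84), Cpne8 (r = 0.56) and Cpne3 (r = -0.87). After the mean of each genotype was removed, these values were -0.30, -0.25, 0.30, -0.28 and -0.76. For Cpne2, Cpne1 and Cpne9 the correlations with Cpne7 over the 6 libraries were 0.67, -0.38 and 0.44. With the mean of each genotype removed they were 0.29, -0.67 and 0.43. The libraries form 2 genotype groups and share their scaling, so these correlations describe the 6 libraries only.

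Promoter sequence was at hand for 6 of the 9 members, with 7 start sites, in the RefSeq table for GRCm38.p6. Each window ran from 250 bases before to 50 bases after the start. The GC box GGGCGG or its reverse complement CCGCCC was found in 6 of the 7 windows, against 35.7% of all 32851 promoters in the table. The TATA box TATAAA, sought on both strands, was in 0 of the 7, against 13.6% of all promoters. The window of Cpne5 (chr17:29237741-29238040, reverse strand, GRCm38.p6) is shown because Cpne5 had the largest difference after Cpne7, with its 2 GC boxes in capitals.
Cpne5: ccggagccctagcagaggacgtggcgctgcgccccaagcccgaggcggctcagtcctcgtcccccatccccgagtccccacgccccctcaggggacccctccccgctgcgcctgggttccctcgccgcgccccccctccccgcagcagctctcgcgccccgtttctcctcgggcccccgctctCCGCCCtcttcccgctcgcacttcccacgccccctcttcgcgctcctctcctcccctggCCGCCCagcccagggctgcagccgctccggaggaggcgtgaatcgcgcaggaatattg
It held 32 CG dinucleotides, against a median of 7 over all promoters, and 74.7% of its bases were G or C. A match of these letters is a description of the window and not a bound site.

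Other proteins with C2 domains, not all of them calcium sensors, were described from 2 lists. Of the synaptotagmins and other proteins with a pair of C2 domains, 21 of 26 could be tested. None was called by limma, beside 30 of 18893 over all genes. At an unadjusted p under 0.05 there were 9 of 21 lower and 0 higher, beside 5.5% and 8.41% of all tested genes. The median difference was -0.48, against 0.09 over all genes. Syt13, a synaptotagmin that lacks the usual calcium-binding residues, had a TPM of 96.6, 87.7 and 65.0 in WT and of 27.4, 35.4 and 35.2 in S156A, a difference of -1.31 (SE 0.18) with a limma adjusted p of 0.060. Syt2, a fast calcium sensor of transmitter release in hindbrain and spinal cord, differed by -1.76 (limma adjusted p = 0.081). Doc2a, a sensor of spontaneous and asynchronous release, differed by -1.08 (limma adjusted p = 0.081). These 3 were named for the smallest p of the list in this same contrast. In the list, 10 of 21 were lower without overlap, these 3 among them, and 0 were higher. Over all tested genes the shares were 7.05% and 13.7%.

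Of the other C2 domain proteins, 18 of 21 could be tested, none was called by limma, and at an unadjusted p under 0.05 there were 6 of 18 lower and 0 higher, beside the same 5.5% and 8.41% of all genes, with a median of -0.47. Prkcb, a calcium-dependent kinase, differed by -0.67 (limma adjusted p = 0.20). Unc13a, the vesicle-priming protein, differed by -0.50 (limma adjusted p = 0.25). Of 14 reported partners of copines, all could be tested and none was called, with 1 higher and 3 lower at an unadjusted p under 0.05 and a median of 0.04. Bdnf, the neurotrophin whose signal Cpne6 is reported to carry, had a TPM of 3.92, 4.20 and 2.96 in WT and of 1.58, 0.237 and 1.64 in S156A, without overlap (limma adjusted p = 0.24). Ncl, which encodes nucleolin, differed by 0.36 (limma adjusted p = 0.25), and Ywhag, which encodes the gamma form of a phosphoserine-binding adaptor that Cpne1 is reported to bind, by -0.42 (limma adjusted p = 0.30).

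Marker genes of the cell types that whole brain holds are given beside these values, where 38.3% of all tested genes lay below 0, 0.0741% were called lower and 0.0847% called higher. Of 7 pan-neuronal markers 6 lay below 0 and none was called, with a median of -0.39. Of 8 thalamic markers 7 lay below 0 and none was called, with a median of -0.91 and summed TPM of 273 to 418 in WT and 155 to 221 in S156A. Of 8 hindbrain and spinal markers 6 lay below 0 and 2 were called lower, with a median of -0.92 and summed TPM of 80.1 to 104 in WT and 55.8 to 65.9 in S156A. Of 8 striatal markers 6 lay below 0 and none was called, with a median of -0.15 and summed TPM of 167 to 232 and 140 to 163.

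Of 7 cortical glutamatergic markers 6 lay above 0 and none was called, with a median of 0.55 and summed TPM of 385 to 426 in WT and 486 to 834 in S156A. All 8 microglial markers lay above 0 and 3 were called higher, with a median of 1.52 and summed TPM of 93.6 to 141 in WT and 295 to 370 in S156A. Of 6 astrocyte markers 4 lay above 0 and 1 was called higher, with a median of 0.39. Their summed TPM were 879 to 940 and 1515 to 2339. Apoe made up most of that sum, with 498, 584 and 616 TPM in WT and 1194, 1228 and 1862 in S156A. The astrocyte sum therefore says little of the other markers in that list. Of 7 markers of the oligodendrocyte lineage 5 lay above 0 and 1 was called higher, with a median of 1.15 and summed TPM of 218 to 265 and 277 to 399. All 4 choroid plexus markers that could be tested lay above 0 and none was called, with a median of 0.98. The sum over all 5 was 1100 to 1498 TPM and 2285 to 3410 TPM. Nearly all of it was Ttr, with 1471, 1169 and 1028 TPM in WT and 2177, 2321 and 3335 in S156A. All 3 pituitary markers that could be tested lay above 0 and none was called, with a median of 1.81. The sum over all 6 was 7.32 to 132 TPM and 161 to 351 TPM. Most of it in S156A was Gh, with 310, 166 and 130 TPM, against 0, 1.69 and 97.1 in WT. All 3 erythroid markers that could be tested lay above 0 and none was called, with a median of 0.51 and overlapping sums. All 10 skeletal muscle markers had fitted values below 0 and none was called, with a median of -0.59 and sums that overlapped widely. At least 1 library listed 4 pituitary markers (Gh, Prl, Cga and Pou1f1) and 1 muscle marker (Tnnc2) at 0, and no marker of the other lists was at 0 in any library. The part of these cell types in the copine differences was not tested. The Cpne7 difference was -2.27 (SE 0.24) without the 2 muscle-rich libraries, where the limma adjusted p was 0.067.

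The genes whose levels ran most like that of Cpne7 over the 6 libraries, by Pearson correlation of log2(TPM + 1), were Baalc (0.998), Tspan17 (0.997), SNORD16 (0.995), Neurl1a (0.993) and Vamp1 (0.992). Vamp1, a vesicle SNARE protein, had a TPM of 27.3, 25.5 and 24.3 in WT and of 15.6, 12.7 and 14.5 in S156A. Baalc, a lipid-anchored protein of neural tissue, had a TPM of 27.7, 27.8 and 24.6 in WT and of 16.3, 14.4 and 15.6 in S156A. In both genes the lowest WT library was replicate 3 and the lowest S156A library was replicate 2, as in Cpne7. Choosing genes by this correlation favours such a shared order. Their differences, -0.81 and -0.75, were smaller than that of Cpne7. These values describe 6 libraries in 2 genotype groups, so a difference between the genotypes enters each of them.

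The Cpne7 difference stayed below 0 in all 23 alternative settings, between -2.27 and -1.51, but 11 of them took its adjusted p above 0.05. The sign of the difference could not turn when libraries were left out, because every S156A library lay below every WT library. Nor could a change of pseudocount, filter or variance model turn it, so the kept direction adds no support. Leaving out WT replicate 1, WT replicate 2 or any of the 3 S156A libraries gave limma adjusted p between 0.0997 and 0.25. Without WT replicate 3 Cpne7 was still called.

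**Figure D4:**
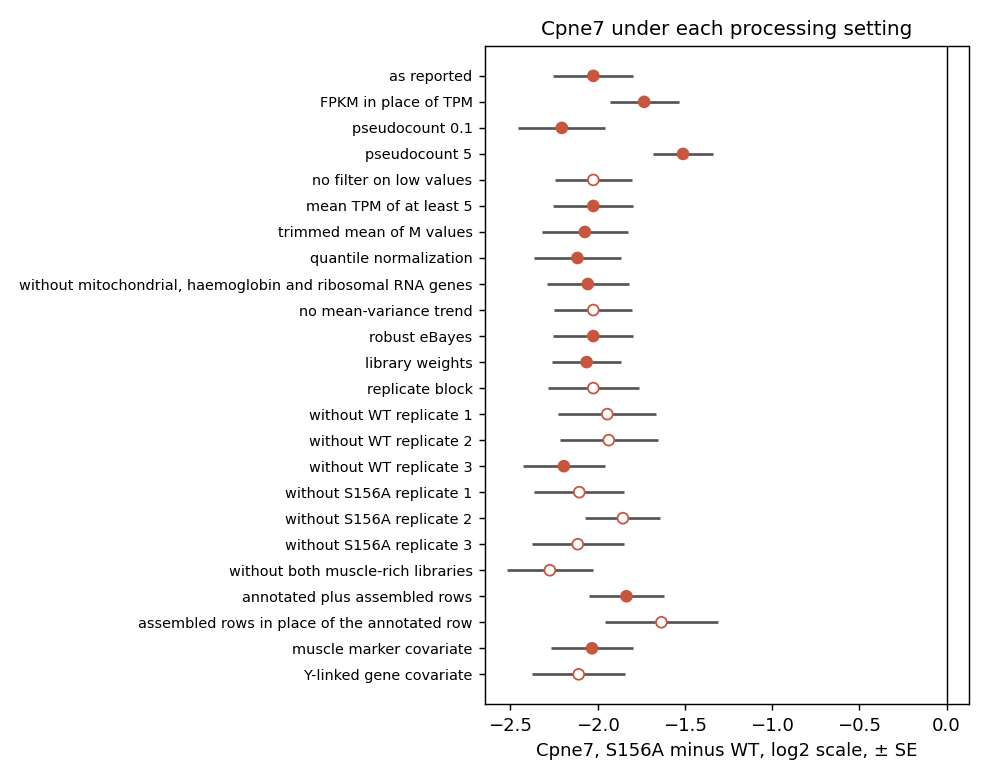
Cpne7 difference, S156A minus WT, on the log2 scale with its SE, under the reported setting and each of 23 alternatives; filled points were called at an adjusted p under 0.05 and open points were not. All values lie between -2.27 and -1.51, and 11 alternatives are open points.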

How the data were processed

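RNA from E18.5 whole brain was sequenced in 3 WT and 3 S156A libraries, each from 3 pooled brains, with a directional kit, per the labels' protocols. Per the submitters' processing notes, reads passed through Trim Galore (0.6.6), the aligner HISAT2 (2.2.1) and the assembler StringTie (2.1.5), and the build was hg38, although the rows carry mouse genes. The strand setting and annotation release are not stated there. Of 50012 genes matched by symbol to GENCODE M21 (GRCm38), 4.14% started within 1000 bases of that position, and 1 of the 9 copines did, so GRCm39 is inferred.

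The deposited FPKM values (fragments scaled to length and library) and TPM values are StringTie gene abundances, per the file headers. The deposited TPM were handled as a score, because assembled rows repeat the annotated ones and the sum exceeds that of a TPM column. The deposited coverage (reads per base) was used only to estimate depth, from its commonest ratio to FPKM, and to describe Cpne4 and Cpne8. The files hold no counts, so no counting intervals are given, and depth limits the low values of Cpne9 most.

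Annotated rows were used, with 7 identifiers found on several rows summed. Genes reaching a mean TPM of 1 (18893 of 55359) were fitted on log2(TPM + 1), a scale that understates changes of low genes, with limma 3.58.1 in R 4.3.3 (eBayes with a mean-variance trend, no covariate, two-sided, Benjamini-Hochberg over all tested genes). The test was called at an adjusted p under 0.05. Pairs of copine levels were compared by exact sign flips. The script was tested on simulated data.

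The members and lists were chosen with earlier results of these data known. Genes named besides the members are up to 3 per C2 or partner list with the smallest p, the 5 best correlated with Cpne7 (identifier-only names left out), and genes overlapping a member; 1 gene that the rule names is not reported here. Apoe, Ttr and Gh were named after their values were seen, because each made up much of a marker sum. Alternatives varied the unit, pseudocount, filter, scaling, model, libraries and rows. Promoters of Cpne3, Cpne6 and Cpne7 and protein sequences were not used here.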

Additional observations from a re-analysis of the deposited data

How the results depend on the processing

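Over 23 alternatives the Cpne7 difference kept its direction, which many of them could not change. Its limma adjusted p rose above 0.05 with no filter on low values (-2.03, adjusted p = 0.21), no mean-variance trend (-2.03, 0.061), the replicate block (-2.03, 0.27), without both muscle-rich libraries (-2.27, 0.067) and, as alternatives added after the data were seen, with assembled rows (-1.63, 0.11) and with a Y-linked gene covariate (-2.11, 0.11). Leaving out 1 library gave -2.19 to -1.86, with 0 to 1 copine genes called. The number of copine genes called was 0 in each setting where Cpne7 was not, and 2 with library weights and with a muscle marker covariate (also added later), where Cpne5 joined (-0.94, adjusted p = 0.033, and -0.91, 0.039). Without WT replicate 2 or S156A replicate 2 the difference of Cpne1 turned to -0.010 or -0.038, and leaving out 1 library moved it between -0.038 and 0.17. The cause of these changes was not tested. No other member changed direction or call, though Cpne8 ranged from -0.71 to -0.12 and Cpne9 from -0.64 to -0.01. Over all genes the number called ran from 0 to 366, against 30. Whether the replicate numbers pair the libraries could not be decided. Deviations of same-numbered libraries correlated at -0.55, 0.19 and -0.41. Those of the muscle-rich WT replicate 3 and S156A replicate 1 correlated at 0.65, so muscle transcripts could hide a pairing. Cpne9 had no value with FPKM or with a mean TPM of at least 5, where it missed the filter. The files give no counts, so the counting error behind low values is unknown.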
